A study of Mus musculus with 36 samples.

Results

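Gene expression was compared between the tibiae of 12 LMNA G/G mice treated with an adenine base editor (ABE) and 12 LMNA G/G mice given saline. These 24 libraries of the 36 in the series were taken by their treatment labels, and the 12 wild-type libraries serve only as levels beside them. The table lists 56246 genes, of which 48911 were used, those long enough that the TPM formula can correct for their length. Of these, 18466 reached a mean of 1 scaled TPM over the 24 libraries and were tested. Scaled TPM are the TPM of the table, which set reads against gene length and library total, after a division that gives the typical gene the same level in every library.

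Both groups carried 2 copies of a human BAC transgene with LMNA with the progeria mutation, on a C57BL/6J background, and differed in what was injected behind the eye on day 14 after birth. ABE-treated mice received a pair of AAV9 vectors that each encode one part of the editor, with a guide to the mutant base, and the saline-treated mice received saline. Each group had 6 females and 6 males, all 6 months old, and each library is 1 mouse. AAV9 enters many cell types and the vectors do not restrict editing to bone, so bone, blood and muscle cells could each have been reached. The BAC also holds the neighbouring human gene RAB25, in both groups. RNA came from tibiae without epiphyses and with the marrow removed. The labels give no litter or day of preparation, and the wild-type mice have their own run of mouse numbers, so they were not tested against the treated mice.

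The mutation opens a cryptic splice site, so that cells make progerin, a shortened lamin A that stays bound to the nuclear membrane. ABE changes an A-T base pair to G-C without cutting both strands, which here restores the normal sequence of the transgene. Cortical bone is made by osteoblasts, which become osteocytes in the matrix, and is resorbed by osteoclasts, cells of the monocyte lineage. Marrow holds blood-forming cells, many of which divide, and muscle and tendon attach to the outer surface.

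The 24 libraries had between 48064068 and 116206662 reads on genes, with a median of 79414301.5. ABE replicate 1, a female, stood apart. Its scaling divisor was 0.242, against 0.668 to 1.46 in the other 23 libraries, and 96.6% of its deposited TPM lay on the short genes left out here. It also had the lowest marrow-cell content and the highest muscle content of the 24 libraries, as defined below, and counts are given with and without it. Bone genes were read, with 14 of 14 osteocyte genes and 15 of 17 osteoblast genes passing the filter on low values. This filter does not identify the tissue, since 32 of 32 skeletal muscle genes and 19 of 19 neutrophil genes passed it as well. Genes of marrow cells and of muscle were also read at high levels in every library, although marrow had been removed.

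Of the 18466 genes, 8953 (48.5%) differed between ABE-treated and saline-treated mice at an adjusted p under 0.05, with sex as a covariate (limma with Benjamini-Hochberg adjustment). The editor group was higher for 4411 genes (23.9%) and lower for 4542 (24.6%), and the median log2 fold change of all genes tested was -0.0095. With the TPM as deposited, short genes included, 404 genes were higher and 4742 lower and the median was -0.27, so directions hold relative to the scaling used here. Without ABE replicate 1, 7774 genes (42.1%) were called, 3880 higher (21%) and 3894 lower (21.1%). A count of called genes on a list is read here against these shares. The ranges of the groups nearly always met: the 12 and 12 libraries did not overlap for 6 higher (0.0325%) and 2 lower genes (0.0108%). The 6 were *Cilp2*, *Gm43119*, *Atrnl1*, *Chd9*, *Wars2* and *Ttc17*, and the 2 were *Mpg*, which removes damaged bases from DNA, and *Pole3*, a subunit of a DNA polymerase. *Mpg* lay at 8.03 ± 0.911 scaled TPM (SD, n = 12) with ABE and at 10.5 ± 0.580 (SD, n = 12) with saline, a small difference with narrow spread.

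Muscle genes were higher and marrow genes lower in the editor group. The muscle content of a library, the mean log2(scaled TPM + 0.5) of 32 skeletal muscle genes, lay between 7.66 and 10.9 (median 10.03) in ABE-treated and between 5.88 and 9.96 (median 8.24) in saline-treated mice. Content of marrow cells, the mean over the neutrophil, erythroid and B cell lists, lay between 4.16 and 6.78 (median 5.96) in ABE-treated and between 5.35 and 6.77 (median 6.43) in saline-treated mice. The group means differed by 1.51 for muscle and by -0.58 for marrow cells. Of the ABE-treated libraries, 7 lay above all saline-treated libraries in muscle content and 4 lay below all of them in marrow-cell content. Across the 24 libraries, in each of which both are relative to the reads of that library, the contents ran against each other, with Pearson r = -0.75 and Spearman rho = -0.83. The summed level of the 32 muscle genes ran from 13768 to 160881 scaled TPM in ABE-treated and from 4235 to 94749 in saline-treated mice, and that of the 16 erythroid genes from 268 to 2935 and from 1138 to 4067. In bulk tissue, fewer cells of a type and less RNA per cell cannot be told apart.

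**Figure D1:**
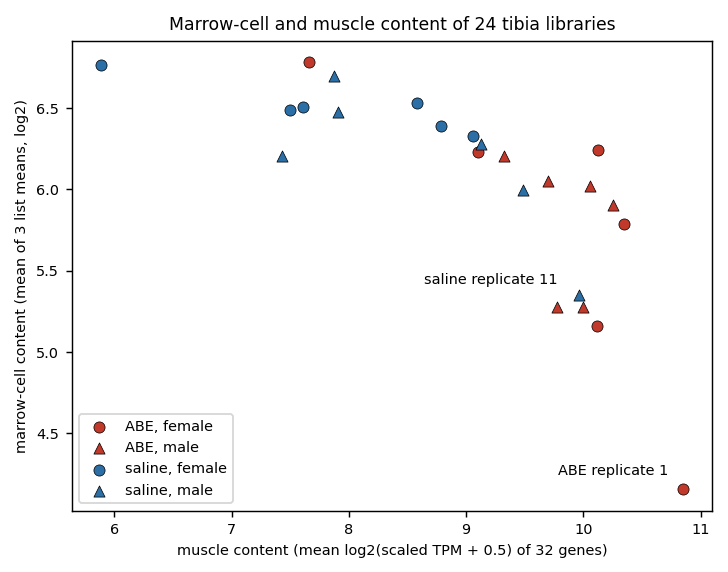
Muscle content (x axis, mean log2(scaled TPM + 0.5) of 32 genes) and marrow-cell content (y axis, log2 scale) of the 24 libraries, with color for treatment and shape for sex. Of the ABE-treated libraries, 7 lie to the right of all saline-treated ones and ABE replicate 2 lies among them, ABE replicate 1 lies at the lower right end, and saline replicate 11 has the highest muscle content and the lowest marrow-cell content of its group.

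With muscle content as a covariate, 101 genes (0.547%) were called, and with marrow-cell content as a covariate 1692 (9.16%), 945 higher (5.12%) and 747 lower (4.05%). Of the 101, 67 were higher (0.363%) and 34 lower (0.184%). With both, and without the covariate genes, 457 of 18384 genes (2.49%) were called, 282 higher (1.53%) and 175 lower (0.952%), while 3855 had an unadjusted p under 0.05. Of the 457, 386 were also called without the contents, 377 of them in the same direction. This number rested on saline replicate 11, which has the highest muscle content and the lowest marrow-cell content of its group. Without it 11 genes were called, 8 higher and 3 lower, and without other single libraries between 179 and 690. Each call within content given below is open to this limit. A count of calls on a list within content is read against the 2.49% of all genes. At this share, 0 calls on a short list do not set it apart. Sex and the contents accounted for 40.8% of the variance of treatment, so the treatment and the tissue mixture could be told apart only in part.

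Skeletal muscle genes were higher together. Of 32 genes on the list, 29 were higher and 0 lower, with a median log2 fold change of 1.33, and 24 were higher without ABE replicate 1. Rises and falls were ranked among called genes with a group mean of at least 10 scaled TPM and 1 direction in both sexes. By this rule, the 3 largest rises were genes of slow-twitch and heart fibers. *Myh7*, the myosin heavy chain of slow fibers (ENSMUSG00000053093.16, chr14:54970684-54994626, minus strand, as all gene positions on GRCm38), lay between 7.83 and 291 scaled TPM (median 34.7) in ABE-treated and between 0.109 and 19.9 scaled TPM (median 2.12) in saline-treated mice. For 9 of 12 ABE-treated mice it was above all saline-treated mice, with a log2 fold change of 3.54 (adjusted p = 0.001, SE 0.65). *Tnnc1*, the calcium-binding troponin of slow fibers, lay between 17.1 and 336 scaled TPM (median 52.0) in ABE-treated and between 1.77 and 27.1 scaled TPM (median 9.73) in saline-treated mice. Again 9 of 12 libraries lay above the saline range, with a log2 fold change of 2.86 (adjusted p = 0.00073, SE 0.48). *Tnni1*, the inhibitory troponin of slow fibers, had a log2 fold change of 2.71 (adjusted p = 0.00073, SE 0.46), and the myosin light chains of slow fibers *Myl3* and *Myl2*, which were not on the list, had log2 fold changes of 2.41 (adjusted p = 0.0016, SE 0.48) and 2.26 (adjusted p = 0.0026, SE 0.49).

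*Acta1*, the actin of skeletal muscle fibers and the highest on the list, lay between 2415 and 31761 scaled TPM (median 14616) in ABE-treated and between 761 and 17619 scaled TPM (median 5595) in saline-treated mice. It had a log2 fold change of 1.21 (adjusted p = 0.026, SE 0.43), with 4 of 12 ABE-treated libraries above all saline-treated ones. *Atp2a1*, the calcium pump of fast fibers, had a log2 fold change of 1.33 (adjusted p = 0.019, SE 0.44). *Klhl34* and *Asb15* belong to families of adaptors for ubiquitin ligases and were not on the muscle list. *Klhl34* lay between 3.97 and 39.5 scaled TPM (median 13.3) in ABE-treated and between 0.257 and 4.56 scaled TPM (median 2.18) in saline-treated mice, with a log2 fold change of 2.62 (adjusted p = 0.00017, SE 0.34), and *Asb15* had a log2 fold change of 2.49 (adjusted p = 0.00073, SE 0.42). For each of them 11 of 12 ABE-treated libraries exceeded the whole saline range. On a list of muscle atrophy, denervation and regeneration genes, 7 of 13 were higher and 2 lower, among the higher ones *Myh3*, the embryonic myosin, at a log2 fold change of 1.14 (adjusted p = 0.0095, SE 0.33). *Trim63*, a ubiquitin ligase that breaks down muscle protein, had a log2 fold change of 1.24 (adjusted p = 0.012, SE 0.38) without and of -0.11 (adjusted p = 0.81, SE 0.22) within content. Wild-type tibiae had medians of 19.1 scaled TPM for *Myh7* and 2468 for *Acta1*.

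Genes of energy metabolism were mostly higher. Of 41 nuclear genes of oxidative phosphorylation, 39 were higher and 0 lower, with a median log2 fold change of 0.64, and within marrow-cell and muscle content 0 were called and the median was -0.05. *Cox7a1* and *Cox8b*, the forms of cytochrome oxidase subunits used in muscle, had log2 fold changes of 1.75 (adjusted p = 0.0047, SE 0.43) and 1.46 (adjusted p = 0.014, SE 0.46). *Ndufs1*, a subunit of complex I in all tissues, had a log2 fold change of 0.77 (adjusted p = 0.0058, SE 0.20). Of 20 genes of glycolysis, 13 were higher and 5 lower, and of 18 genes of fatty acid oxidation 15 were higher and 1 lower. Forms of the same enzyme moved apart: *Hk2*, the hexokinase of muscle, rose (log2 fold change 1.15, SE 0.26, adjusted p = 0.0033), while *Hk1*, the form of blood cells and brain, fell (log2 fold change -0.58, SE 0.14, adjusted p = 0.0042). In the same way *Cpt1b*, the muscle form of the enzyme that brings fatty acids into mitochondria, rose (log2 fold change 0.63, SE 0.14, adjusted p = 0.003), and *Cpt1a*, the form of liver and other tissues, fell (log2 fold change -0.71, SE 0.17, adjusted p = 0.0041). Of these 3 lists, 0 genes were called within content.

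**Figure D2:**
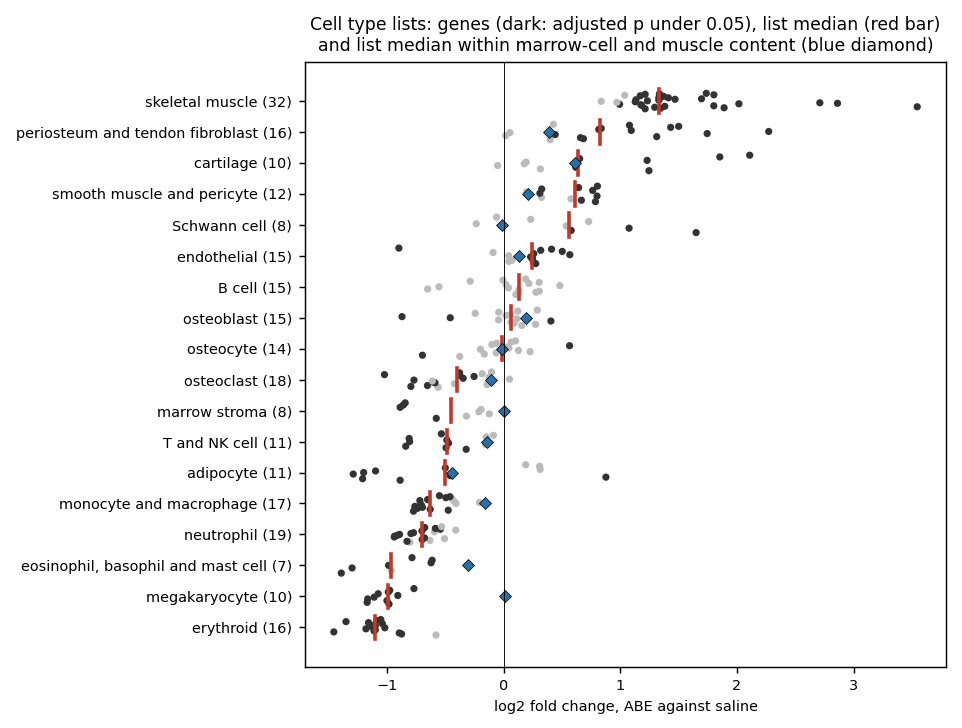
Log2 fold changes of ABE against saline (x axis) for the genes of 18 cell type lists (y axis, number of genes tested in parentheses), with the list median as a red bar and the median within marrow-cell and muscle content as a blue diamond where the list is no covariate. Skeletal muscle lies at the top with a median of 1.33 and erythroid genes at the bottom with -1.10.

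Connective tissue genes were higher as well. Of 16 genes of periosteum and tendon fibroblasts, 12 were higher and 0 lower, with a median log2 fold change of 0.83, and within content the median was 0.39 and 1 was called. *Col3a1*, a fibrillar collagen of soft tissue, lay between 114 and 423 scaled TPM (median 193) in ABE-treated and between 29.7 and 181 scaled TPM (median 83.9) in saline-treated mice, with 8 of 12 ABE-treated libraries above the saline range (log2 fold change 1.31, SE 0.25, adjusted p = 0.0012). *Fmod*, a small proteoglycan of tendon, had a log2 fold change of 1.43 (adjusted p = 0.0078, SE 0.40), and *Mkx*, a transcription factor of tendon cells, had a log2 fold change of 0.84 (adjusted p = 0.0007, SE 0.14). *Myoc*, a secreted protein known from the eye and found in muscle, had a log2 fold change of 2.64 (adjusted p = 0.001, SE 0.48). Of 10 cartilage genes that passed the filter, of 19 on the list, 6 were higher and 0 lower, with a median log2 fold change of 0.64, and of 0.61 within content, where 0 were called.

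*Chad*, a matrix protein of cartilage and tendon, lay between 16.4 and 313 scaled TPM (median 48.6) in ABE-treated and between 1.59 and 47.9 scaled TPM (median 11.6) in saline-treated mice. The ranges met, with 6 of 12 ABE-treated libraries above all saline-treated ones (log2 fold change 2.11, SE 0.49, adjusted p = 0.0035). *Prg4*, which encodes the joint lubricant lubricin, lay between 4.95 and 83.5 scaled TPM (median 11.7) in ABE-treated and between 0.698 and 15.9 scaled TPM (median 3.08) in saline-treated mice (log2 fold change 1.85, SE 0.45, adjusted p = 0.0042). Both groups were below the wild-type range of this gene, which began at 398 scaled TPM. The main collagen of cartilage, *Col2a1*, did not pass the test (log2 fold change 0.32, SE 0.29, adjusted p = 0.38). Of 8 Schwann cell genes, 3 were higher and 0 lower, with a median of -0.01 within content.

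Most blood cell lists were lower in ABE-treated mice. Of 16 erythroid genes, 15 were lower, with a median log2 fold change of -1.10, and 13 were lower without ABE replicate 1. *Slc4a1*, the anion exchanger of red cells (ENSMUSG00000006574.15, chr11:102348824-102366203, minus strand), lay between 83.6 and 1051 scaled TPM (median 426) in ABE-treated and between 375 and 1389 scaled TPM (median 1008) in saline-treated mice. For 5 of 12 ABE-treated mice the level was below all saline-treated mice (log2 fold change -1.18, SE 0.30, adjusted p = 0.0052). *Alas2*, the enzyme that starts heme synthesis in red cell precursors, had a log2 fold change of -1.11 (adjusted p = 0.0058, SE 0.29), the carbonic anhydrase *Car1* had a log2 fold change of -1.35 (adjusted p = 0.0031, SE 0.31) and the beta-globin gene *Hbb-bt*, whose near-identical copy can share its reads, had a log2 fold change of -1.45 (adjusted p = 0.0059, SE 0.38). Of 10 megakaryocyte genes, 10 were lower, with a median of -0.99, and within content the median was 0.02 and 0 were called. *Ppbp* and *Pf4*, chemokines of platelets, had log2 fold changes of -1.17 (adjusted p = 0.029, SE 0.43) and -0.98 (adjusted p = 0.029, SE 0.36).

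Neutrophil genes were lower by less, and most of their calls were lost without ABE replicate 1. Of 19 genes, 13 were lower with a median of -0.70, and without that library 3 were lower with a median of -0.51. Their calls without other single libraries were not counted. *S100a9*, a calcium-binding protein that fills neutrophils (ENSMUSG00000056071.12, chr3:90692632-90695721, minus strand), lay between 1034 and 13677 scaled TPM (median 5475) in ABE-treated and between 3602 and 13681 scaled TPM (median 9277) in saline-treated mice. The ranges overlapped widely, and the adjusted p rose from 0.036 to 0.051 without ABE replicate 1 (limma). *Ngp*, a granule protein of immature neutrophils, did not pass (log2 fold change -0.63, SE 0.26, adjusted p = 0.051), and *Csf3r*, the receptor for their growth factor, fell (log2 fold change -0.54, SE 0.18, adjusted p = 0.017). Of 17 genes of monocytes and macrophages, 13 were lower, among them *Mrc1*, the mannose receptor of tissue macrophages (log2 fold change -0.70, SE 0.16, adjusted p = 0.0034). Of 11 T and NK cell genes 8 were lower, and of 7 genes of eosinophils, basophils and mast cells 6 were lower, or 2 without ABE replicate 1. *Prg2*, the major basic protein of eosinophil granules, lay between 51.1 and 1988 scaled TPM (median 414) in ABE-treated and between 252 and 2084 scaled TPM (median 879.7) in saline-treated mice (log2 fold change -1.39, SE 0.54, adjusted p = 0.037), and without ABE replicate 1 its adjusted p was 0.069 (limma).

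No B cell gene passed the test. Of 15 B cell genes 0 were called and the median log2 fold change was 0.13. *Cd79b*, a chain of the B cell receptor, lay between 26.4 and 126 scaled TPM (median 55.6) in ABE-treated and between 32.6 and 102 scaled TPM (median 46.6) in saline-treated mice and did not pass (log2 fold change 0.13, SE 0.21, adjusted p = 0.62). *Ighm*, the heavy chain of IgM, did not pass either (log2 fold change -0.29, SE 0.28, adjusted p = 0.4). Among the 12 largest falls by the ranking rule given above, however, 9 were variable segments of antibody chains, such as *Igkv8-24*. It lay between 8.12 and 33.8 scaled TPM (median 18.7) in ABE-treated and between 20.1 and 261 scaled TPM (median 38.5) in saline-treated mice (log2 fold change -1.62, SE 0.39, adjusted p = 0.0039), and 7 of 12 ABE-treated mice were below all saline-treated mice. These segments are short, near-identical copies whose reads may be shared, so their values are uncertain. Values are also uncertain for *Gm24359* among the largest falls and *AC121143.1* among the largest rises, which are barely longer than the shortest genes used.

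**Figure D3:**
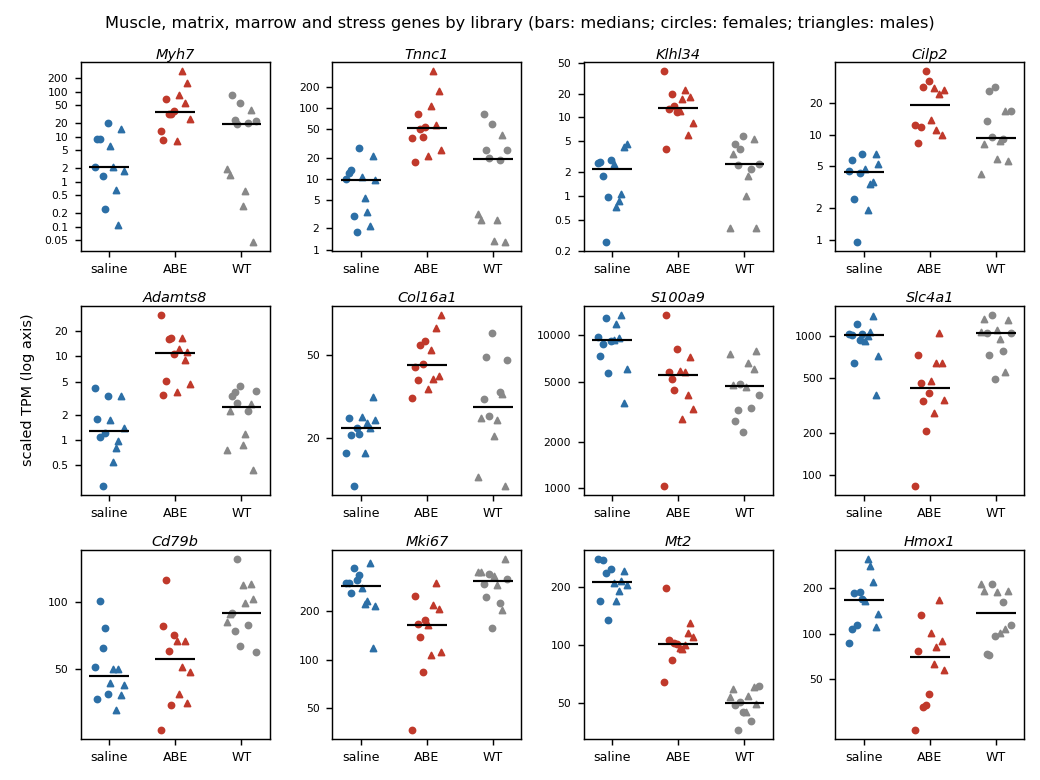
Scaled TPM (y axes, log scale) of 12 genes in the saline-treated, ABE-treated and wild-type libraries, each point 1 mouse, with group medians as bars. *Cilp2* does not overlap between the treatments, while *S100a9* and *Cd79b* overlap widely.

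Genes of dividing cells were lower. All 31 tested genes of DNA replication and all 21 of mitosis were lower, with median log2 fold changes of -0.69 and -0.83, and each of these counts was the same without ABE replicate 1. *Mki67*, the proliferation antigen, lay between 36.4 and 300.5 scaled TPM (median 166) in ABE-treated and between 119 and 403 scaled TPM (median 289) in saline-treated mice. For 4 of 12 ABE-treated mice it was below all saline-treated mice, with a log2 fold change of -0.89 (adjusted p = 0.011, SE 0.27). *Rrm2*, which makes deoxynucleotides, had a log2 fold change of -0.93 (adjusted p = 0.013, SE 0.29), and *Pcna*, the sliding clamp of DNA polymerases, had a log2 fold change of -0.67 (adjusted p = 0.011, SE 0.20). Within content, 7 of 21 mitosis genes and 2 of 31 replication genes were called lower, with medians of -0.24 and -0.22. These calls are limited by saline replicate 11, without which 3 of all genes tested were called lower within content. Marrow-cell content averages 3 lists whose group means differed by -0.71 (neutrophil), -1.08 (erythroid) and 0.05 (B cell). It may therefore not hold the content of each kind of dividing cell. *Ccnb2* and *Ccnb1*, the B cyclins that drive entry into mitosis, had log2 fold changes of -0.96 (adjusted p = 0.0067, SE 0.26) and -0.95 (adjusted p = 0.0059, SE 0.25), and within content these values were -0.33 (adjusted p = 0.023, SE 0.08) and -0.35 (adjusted p = 0.017, SE 0.07). *Ube2c*, which marks the cyclins for destruction, had a log2 fold change of -0.97 (adjusted p = 0.0063, SE 0.26) without and of -0.36 (adjusted p = 0.019, SE 0.08) within content.

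The promoters of these genes often hold short motifs known from the cell cycle, and the windows of the 2 cyclins are shown because both fell also within content. They run from 250 bases before to 50 after the RefSeq transcription start (GRCm38.p6), 5′ to 3′ on the gene's strand. Capitals mark the CCAAT box (CCAAT) and the CHR element (TTTGAA), searched on both strands, and no match of one overlaps the other. The *Ccnb2* window (chr9:70421505-70421804, minus strand) holds 3 and 2 of them, and the *Ccnb1* window (chr13:100786437-100786736, minus strand) holds 2 and 0.
Ccnb2: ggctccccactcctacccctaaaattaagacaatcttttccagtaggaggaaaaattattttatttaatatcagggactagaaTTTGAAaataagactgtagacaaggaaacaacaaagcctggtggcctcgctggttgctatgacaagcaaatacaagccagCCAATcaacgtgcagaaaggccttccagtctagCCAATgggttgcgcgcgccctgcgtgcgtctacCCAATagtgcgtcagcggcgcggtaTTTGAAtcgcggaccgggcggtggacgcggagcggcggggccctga
Ccnb1: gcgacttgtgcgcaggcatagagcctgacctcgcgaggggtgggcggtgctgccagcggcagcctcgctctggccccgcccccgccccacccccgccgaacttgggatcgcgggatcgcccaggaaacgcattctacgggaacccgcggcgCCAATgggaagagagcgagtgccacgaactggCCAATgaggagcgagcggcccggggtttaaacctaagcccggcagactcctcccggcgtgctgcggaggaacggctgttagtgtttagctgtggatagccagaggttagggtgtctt
Of 18 windows of 17 mitosis genes, 88.9% held CCAAT and 72.2% held TTTGAA, against 37.4% and 17.9% of all 32851 windows. For 27 windows of 23 replication genes these shares were 59.3% and 14.8%. A spelling of the E2F site, TTTCCCGC or TTTGGCGC, stood in 33.3% of the replication windows, in 0 of the 18 mitosis windows and in 1.56% of all windows. These matches describe letters and were not tested as binding sites.

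More osteoclast genes were lower than higher. Of 18 genes, 10 were lower and 0 higher, with a median log2 fold change of -0.40, and 8 were lower without ABE replicate 1. In females alone 0 of them were called, with a median of -0.19, where 6.53% of all genes were called. In males alone 12 were called, with a median of -0.63, where 18% of all genes were called. Within content 0 were called, where 2.49% of all genes tested were called, and the median was -0.11. *Ctsk*, the protease that digests bone collagen (ENSMUSG00000028111.4, chr3:95499256-95509362, plus strand), lay between 446 and 1894 scaled TPM (median 799.6) in ABE-treated and between 534 and 2378 scaled TPM (median 1646) in saline-treated mice. The ranges overlapped, with 2 of 12 ABE-treated mice below all saline-treated mice (log2 fold change -0.79, SE 0.26, adjusted p = 0.017). *Car2*, the carbonic anhydrase that supplies acid to the resorption pit, had a log2 fold change of -1.02 (adjusted p = 0.0083, SE 0.29). It is also a gene of red cells. *Mmp9*, a gelatinase of osteoclasts and neutrophils, had a log2 fold change of -0.65 (adjusted p = 0.011, SE 0.19). *Acp5*, the tartrate-resistant acid phosphatase, lay between 283 and 1164 scaled TPM (median 479) in ABE-treated and between 273 and 1462 scaled TPM (median 815) in saline-treated mice and did not pass (log2 fold change -0.56, SE 0.25, adjusted p = 0.066). *Mmp13*, a collagenase of osteoblasts and hypertrophic cartilage, had a log2 fold change of -0.86 (adjusted p = 0.0055, SE 0.22).

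The signals that form osteoclasts differed at the ligand. *Tnfsf11* (RANKL, ENSMUSG00000022015.8, chr14:78277445-78308043, minus strand), the ligand made by osteocytes, osteoblasts and lymphocytes, lay between 2.57 and 9.70 scaled TPM (median 4.71) in ABE-treated and between 5.78 and 13.4 scaled TPM (median 7.69) in saline-treated mice. For 10 of 12 ABE-treated mice the level was below all saline-treated mice (log2 fold change -0.65, SE 0.15, adjusted p = 0.0039), and within content the value was -0.32 (adjusted p = 0.31, SE 0.17). *Tnfrsf11b* (OPG), the decoy receptor that binds this ligand, lay between 13.9 and 31.8 scaled TPM (median 20.6) in ABE-treated and between 9.48 and 25.3 scaled TPM (median 20.9) in saline-treated mice and did not pass (log2 fold change 0.10, SE 0.15, adjusted p = 0.57). The ratio of *Tnfsf11* to *Tnfrsf11b* lay between 0.165 and 0.372 (median 0.219) in ABE-treated and between 0.283 and 1.06 (median 0.347) in saline-treated mice. On the log2 scale, with 0.5 added to both levels, it was -2.01 ± 0.38 (SD, n = 12) in ABE-treated and -1.26 ± 0.53 (SD, n = 12) in saline-treated mice, a difference of -0.75 (two-sided permutation p = 0.00029, 100000 resamples). Leaving out 1 library at a time gave differences from -0.81 to -0.63. In females alone it was -0.63 (exact two-sided permutation p = 0.082), and in males alone -0.87 (exact two-sided permutation p = 0.0022).

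On the receiving side, *Tnfrsf11a* (RANK), the receptor on osteoclast precursors, had a log2 fold change of -0.37 (adjusted p = 0.038, SE 0.15), and without ABE replicate 1 its adjusted p was 0.072 (limma). *Spi1* (PU.1), a transcription factor that myeloid precursors need, had a log2 fold change of -0.66 (adjusted p = 0.0068, SE 0.18). *Cd14*, a coreceptor of monocytes, lay between 4.68 and 7.98 scaled TPM (median 6.42) in ABE-treated and between 7.35 and 12.5 scaled TPM (median 8.45) in saline-treated mice, with 11 of 12 ABE-treated mice below all saline-treated mice (log2 fold change -0.49, SE 0.09, adjusted p = 0.001). Of 11 osteoclast growth genes tested 6 were lower and 0 higher, with a median of -0.37 and of -0.10 within content, where 0 were called. *Cd44*, an adhesion receptor, did not pass (log2 fold change -0.16, SE 0.11, adjusted p = 0.23).

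Few osteoblast and osteocyte genes were called. Of 15 osteoblast genes 1 was higher and 2 were lower (median 0.06), and of 14 osteocyte genes 1 was higher and 1 was lower (median -0.01). *Col1a1* and *Col1a2*, the chains of bone collagen and the highest genes of the list, did not pass, with log2 fold changes of 0.09 (adjusted p = 0.78, SE 0.25) and 0.06 (adjusted p = 0.82, SE 0.22). The transcription factors *Runx2* and *Sp7*, which make cells osteoblasts, did not pass either (log2 fold change -0.04, SE 0.08, adjusted p = 0.68, and log2 fold change 0.11, SE 0.10, adjusted p = 0.32). *Alpl*, the phosphatase that allows mineral to form, lay between 81.5 and 166 scaled TPM (median 122) in ABE-treated and between 61.9 and 147 scaled TPM (median 89.1) in saline-treated mice and rose (log2 fold change 0.41, SE 0.12, adjusted p = 0.011). *Spp1* (osteopontin), an acidic matrix protein made by osteoblasts, osteoclasts and macrophages, lay between 510.1 and 1899 scaled TPM (median 1192) in ABE-treated and between 1023 and 3219 scaled TPM (median 2147) in saline-treated mice. It fell (log2 fold change -0.87, SE 0.19, adjusted p = 0.0027), and wild-type tibiae had a median of 511 scaled TPM. *Ibsp*, bone sialoprotein, fell by less (log2 fold change -0.46, SE 0.17, adjusted p = 0.028), and without ABE replicate 1 its adjusted p was 0.051 (limma).

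Among osteocyte genes, *Mepe*, a phosphoprotein of the mineralized matrix (ENSMUSG00000053863.3, chr5:104325329-104338611, plus strand), lay between 389 and 935 scaled TPM (median 690.0) in ABE-treated and between 460.0 and 1498 scaled TPM (median 1172) in saline-treated mice. It fell (log2 fold change -0.69, SE 0.18, adjusted p = 0.0061), and 2 of 12 ABE-treated mice were below all saline-treated mice. *Dmp1*, a matrix protein that controls mineral and phosphate, lay between 302 and 707 scaled TPM (median 513) in ABE-treated and between 359 and 918 scaled TPM (median 697) in saline-treated mice and did not pass (log2 fold change -0.38, SE 0.16, adjusted p = 0.052). *Sost* (sclerostin), the WNT inhibitor of mature osteocytes, lay between 690.2 and 1201 scaled TPM (median 1042) in ABE-treated and between 574 and 1726 scaled TPM (median 978) in saline-treated mice and did not pass (log2 fold change -0.06, SE 0.17, adjusted p = 0.77), nor did *Phex*, a peptidase of phosphate control (log2 fold change -0.17, SE 0.13, adjusted p = 0.29). Wild-type medians were 28.8 scaled TPM for *Mepe*, 85.7 for *Dmp1*, 59.5 for *Sost* and 22.4 for *Phex*, below the range of each treated group. *Fbln7*, a matrix protein on the osteocyte list, rose (log2 fold change 0.57, SE 0.10, adjusted p = 0.00099). The remaining genes of the study's bone cell panel mark stromal cells. *Thy1* rose (log2 fold change 0.46, SE 0.10, adjusted p = 0.0022), and *Nt5e* and *Eng* did not pass (log2 fold change 0.17, SE 0.19, adjusted p = 0.48, and log2 fold change 0.04, SE 0.08, adjusted p = 0.64). Of the 18 panel genes, 7 were lower and 1 higher, and 0 were called within content. The panel comes from the study of these same samples, so its direction is not independent evidence.

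**Figure D4:**
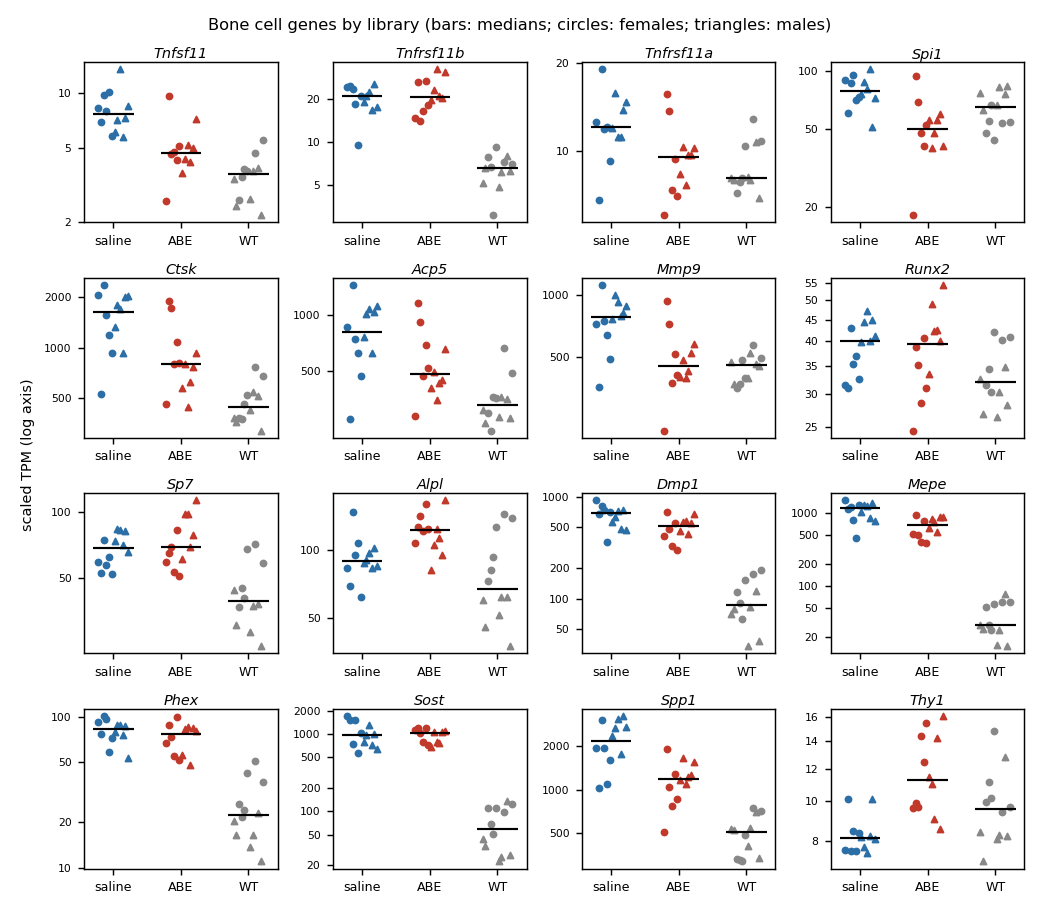
Scaled TPM (y axes, log scale) of 16 bone cell genes in the saline-treated, ABE-treated and wild-type libraries, each point 1 mouse, with group medians as bars. The medians of *Tnfsf11* and *Spp1* are lower with ABE, and the treatments overlap for these genes as for *Tnfrsf11b*, *Runx2*, *Sp7* and *Sost*. The 4 osteocyte genes *Dmp1*, *Mepe*, *Phex* and *Sost* lie lower in wild-type mice.

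Vessel and fat genes split by type. Of 15 endothelial genes 10 were higher and 1 lower, with a median of 0.25 and of 0.13 within content, where 0 were called. *Flt1*, a VEGF receptor, rose (log2 fold change 0.57, SE 0.14, adjusted p = 0.0046), while *Stab2*, the scavenger receptor of marrow sinusoids, fell (log2 fold change -0.90, SE 0.20, adjusted p = 0.0031). Of 12 smooth muscle and pericyte genes 8 were higher and 0 lower, with *Rgs5*, a pericyte regulator of G proteins, at a log2 fold change of 0.80 (adjusted p = 0.0023, SE 0.17). *Higd1b*, another pericyte gene, was called also within content (log2 fold change 0.38, SE 0.09, adjusted p = 0.031), in a fit that called 8 genes higher in all without saline replicate 11. Of 11 adipocyte genes 7 were lower and 1 higher, with a median of -0.50 and of -0.44 within content, where 0 were called. The gene that rose was *Plin4*, a lipid droplet protein of fat and muscle (log2 fold change 0.88, SE 0.31, adjusted p = 0.026), which had a log2 fold change of -0.24 (adjusted p = 0.49, SE 0.19) within content. *Cfd*, the protease adipsin, lay between 22.9 and 188 scaled TPM (median 59.3) in ABE-treated and between 28.3 and 504 scaled TPM (median 238) in saline-treated mice (log2 fold change -1.29, SE 0.47, adjusted p = 0.028), and the hormone genes *Adipoq* and *Retn* had log2 fold changes of -0.89 (adjusted p = 0.0091, SE 0.25) and -1.20 (adjusted p = 0.0013, SE 0.23). Of 8 marrow stroma genes 4 were lower, with a median of 0.0080 within content, and *Hp*, haptoglobin, was one of them (log2 fold change -0.86, SE 0.20, adjusted p = 0.0037), as was *Cxcl12*, the chemokine that holds blood-forming cells in marrow (log2 fold change -0.58, SE 0.20, adjusted p = 0.023).

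Within marrow-cell and muscle content, the largest rises by the same ranking rule were *Klhl34* (log2 fold change 1.42, SE 0.20, adjusted p = 0.0031), *Cilp2* (log2 fold change 1.38, SE 0.29, adjusted p = 0.018) and *Adamts8* (log2 fold change 1.34, SE 0.28, adjusted p = 0.018). For this rule the direction in each sex was that of the group means without the contents. *Cilp2* (cartilage intermediate layer protein 2, ENSMUSG00000044006.8, chr8:69880369-69887687, minus strand) is a matrix protein of cartilage, tendon and muscle attachments. It lay between 8.40 and 40.8 scaled TPM (median 19.2) in ABE-treated and between 0.950 and 6.62 scaled TPM (median 4.42) in saline-treated mice, so that no ABE-treated mouse fell into the saline range (log2 fold change 2.13, SE 0.29, adjusted p = 0.00026 without the contents). *Adamts8*, a secreted metalloprotease, lay between 3.41 and 31.9 scaled TPM (median 11.1) in ABE-treated and between 0.275 and 4.19 scaled TPM (median 1.28) in saline-treated mice, with 10 of 12 ABE-treated mice above all saline-treated mice. Several others of the 10 encode matrix proteins. *Col16a1* encodes a collagen that links fibrils to other matrix proteins (ENSMUSG00000040690.15, chr4:130047840-130099283, plus strand) and lay between 31.0 and 77.4 scaled TPM (median 44.5) in ABE-treated and between 11.9 and 31.4 scaled TPM (median 22.3) in saline-treated mice, with a log2 fold change of 0.94 (adjusted p = 0.016, SE 0.18) within content. *Hmcn2*, a large basement membrane protein, had a log2 fold change of 0.98 (adjusted p = 0.045, SE 0.26), *Clec3b* (tetranectin) had a log2 fold change of 0.94 (adjusted p = 0.031, SE 0.23) and *Fndc1*, a fibronectin domain protein, had a log2 fold change of 0.90 (adjusted p = 0.024, SE 0.20). *Asb15*, the ciliary gene *Cys1* and the light chain segment *Iglv3* completed the 10, with log2 fold changes of 0.91 (adjusted p = 0.013, SE 0.17), 0.95 (adjusted p = 0.013, SE 0.17) and 1.09 (adjusted p = 0.029, SE 0.26).

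Genes of several kinds were among the 10 largest falls within content. *Mt2*, a metallothionein that binds zinc and copper, lay between 64.3 and 198 scaled TPM (median 102) in ABE-treated and between 134 and 280.0 scaled TPM (median 212) in saline-treated mice. For 11 of 12 ABE-treated mice it was below all saline-treated mice, with a log2 fold change of -0.996 (adjusted p = 0.00027, SE 0.14) without and of -0.80 (adjusted p = 0.017, SE 0.16) within content. Its paralog *Mt1*, which lies next to it, had a log2 fold change of -0.90 (adjusted p = 0.00073, SE 0.15) without and of -0.70 (adjusted p = 0.052, SE 0.19) within content. *Stfa2l1* and *Asprv1*, genes read in neutrophils, had log2 fold changes of -0.79 (adjusted p = 0.03, SE 0.19) and -0.63 (adjusted p = 0.028, SE 0.15) within content. For 5 others the direction turned once content was held: *Ctxn3*, *Stbd1*, *Plekhb1*, *F830016B08Rik* and *Cacng1* had log2 fold changes between 0.08 and 0.88 without the contents, none called, and between -0.86 and -0.64 within them. For these 5, the direction required to be equal in both sexes was thus not that of the fall within content. *Cacng1* is a subunit of the calcium channel of muscle and *Stbd1* binds glycogen. *Gm14586*, an unnamed gene, had a log2 fold change of -0.66 (adjusted p = 0.0497, SE 0.18).

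Of 19 genes with the largest differences within content, 19 kept their sign without saline replicate 11 and their log2 fold changes were 0.813 to 1.09 times those with it. At an adjusted p under 0.05, however, 2 of the 19 passed without this library, *Klhl34* and *Stbd1* (limma). Of the 19, 12 passed in males alone and 0 in females alone, with the same sign in all 19 in both. The 19 were chosen for large differences in these same libraries, so the kept signs are not independent evidence.

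**Figure D5:**
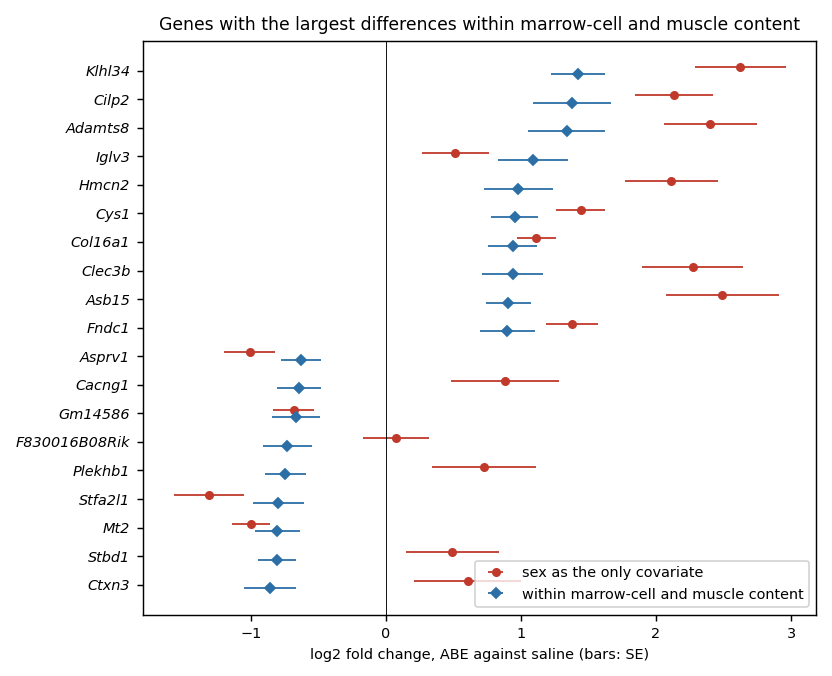
Log2 fold changes of ABE against saline (x axis) with their SE for 19 genes (y axis) with the largest differences within marrow-cell and muscle content, fitted with sex alone (red) and with both contents (blue). For *Mt2* and *Col16a1* the values of both fits lie close together, while 5 genes turned from above 0 to below it.

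The promoter of *Mt2* is shown because metallothioneins are controlled by zinc through a short motif. The window (chr8:94172368-94172667, plus strand, GRCm38.p6, RefSeq) holds 4 matches to the metal response element, spelled TGCACNC or TGCGCNC and searched on both strands, in capitals.
Mt2: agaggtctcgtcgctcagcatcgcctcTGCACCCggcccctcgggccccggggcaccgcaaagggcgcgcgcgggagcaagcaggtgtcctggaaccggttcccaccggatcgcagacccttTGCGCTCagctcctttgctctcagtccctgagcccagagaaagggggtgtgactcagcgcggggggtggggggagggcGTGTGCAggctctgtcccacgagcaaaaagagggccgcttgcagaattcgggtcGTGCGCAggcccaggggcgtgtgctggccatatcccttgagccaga
Of all 32851 windows, 25.7% held at least 1 such match. The share was 30.0% of 20 windows for the glucocorticoid and metallothionein list to which *Mt2* belongs. For the lists of mitosis, DNA replication and interferon-stimulated genes it was 44.4%, 63.0% and 16.7%.

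Stress and signalling genes split in both directions. *Hmox1*, the heme oxygenase that red cell breakdown and oxidants induce (ENSMUSG00000005413.8, chr8:75093621-75100589, plus strand), lay between 22.9 and 168 scaled TPM (median 69.5) in ABE-treated and between 86.0 and 314 scaled TPM (median 167) in saline-treated mice and fell (log2 fold change -1.33, SE 0.26, adjusted p = 0.0013), with 8 of 12 ABE-treated mice below all saline-treated mice. Of 14 genes of the NRF2 oxidant response 6 were lower and 3 higher. Of 16 heat shock chaperones 7 were higher and 1 lower, led by *Hspa1a*, an inducible chaperone (log2 fold change 1.49, SE 0.27, adjusted p = 0.001), whose neighbour *Hspa1b* is a near-identical copy that can share its reads and had a log2 fold change of 1.30 (adjusted p = 0.0019, SE 0.26). *Gadd45a*, a gene induced by DNA damage and in denervated muscle, fell (log2 fold change -0.64, SE 0.13, adjusted p = 0.0014). The p53 target list divided evenly, with 6 higher and 6 lower of 18. Of 13 genes of senescence and secreted factors 4 were lower and 1 higher, among the lower ones *Lmnb1*, a lamin of dividing cells (log2 fold change -0.71, SE 0.20, adjusted p = 0.0092). This count leaves aside the direction that a member takes in senescence. Of 19 genes of the nuclear lamina 6 were lower and 2 higher.

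Of 26 WNT genes 10 were higher and 2 lower, with a median of 0.17. *Wnt10b*, a ligand that favours osteoblasts over adipocytes (ENSMUSG00000022996.15, chr15:98770712-98778150, minus strand), lay between 13.9 and 36.7 scaled TPM (median 17.2) in ABE-treated and between 8.30 and 15.9 scaled TPM (median 11.9) in saline-treated mice. It rose (log2 fold change 0.70, SE 0.12, adjusted p = 0.00082) and passed also within content (log2 fold change 0.68, SE 0.16, adjusted p = 0.029). The fit within content called 8 genes higher in all when saline replicate 11 was left out. *Wnt5a*, a ligand outside the beta-catenin route, had a log2 fold change of 0.75 (adjusted p = 0.001, SE 0.13). Of 26 BMP and SMAD genes 8 were higher and 3 lower, and of 17 TGF-beta genes 8 were higher and 3 lower. Of 24 genes of collagen folding and crosslinking 7 were higher and 2 lower. *P4ha2* and *P4ha1*, subunits of the enzyme that hydroxylates collagen, rose (log2 fold change 0.82, SE 0.13, adjusted p = 0.00058, and log2 fold change 0.43, SE 0.08, adjusted p = 0.00096), while *Lox*, which crosslinks collagen, fell (log2 fold change -0.52, SE 0.14, adjusted p = 0.0074).

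Interferon-stimulated genes were mostly lower. Of 25 genes 13 were lower and 1 higher, with a median of -0.30, and within content 0 were called and the median was -0.01. *Isg15*, a ubiquitin-like protein made under interferon, lay between 15.6 and 128 scaled TPM (median 54.5) in ABE-treated and between 35.2 and 158 scaled TPM (median 107) in saline-treated mice (log2 fold change -0.96, SE 0.29, adjusted p = 0.012). *Irf7*, a transcription factor of the response, had a log2 fold change of -0.64 (adjusted p = 0.0043, SE 0.16). The promoter window of *Isg15* (chr4:156200769-156201068, minus strand, GRCm38.p6, RefSeq) is shown as an example of a motif of interferon response, GAAA, any 2 bases and GAAA again, searched on both strands. It holds 3 overlapping matches in capitals.
Isg15: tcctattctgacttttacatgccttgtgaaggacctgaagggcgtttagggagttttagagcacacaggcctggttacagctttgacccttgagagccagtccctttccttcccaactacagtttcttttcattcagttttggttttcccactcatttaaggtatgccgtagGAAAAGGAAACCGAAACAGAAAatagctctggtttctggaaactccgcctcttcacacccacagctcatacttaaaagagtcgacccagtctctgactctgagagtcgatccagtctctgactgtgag
The motif stood in 55.6% of 18 windows of 17 genes of the list and in 3.44% of all 32851 windows.

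Females and males gave unequal numbers of calls at equal group sizes. In females alone 1206 genes (6.53%) were called, 385 higher (2.08%) and 821 lower (4.45%). In males alone 3320 (18%) were called, 1721 higher (9.32%) and 1599 lower (8.66%). Within content, 1 gene was called in females and 1626 in males. The difference between the sexes itself, tested as an interaction of treatment and sex, called 1 gene (0.00542%), the pseudogene *Gm10038*, with 2348 at an unadjusted p under 0.05 (limma). *Myh7* had a log2 fold change of 2.62 in females and 4.47 in males, and *Mki67* of -1.36 and -0.41, and neither passed the interaction test. The medians of several lists were also unequal, which was not tested for the lists. The median log2 fold change was -1.16 in females and -0.48 in males for mitosis genes, -1.39 and -0.57 for histone genes, 1.72 and 0.94 for skeletal muscle genes and 0.87 and 0.39 for genes of oxidative phosphorylation. For adipocyte genes the larger size was in males, with -0.31 in females and -0.69 in males. Of the interferon-stimulated genes 6 were called in females alone and 0 in males alone, with medians of -0.44 and -0.14. ABE replicate 1 is 1 of the 6 ABE-treated females, and females alone were not fitted without it. Over both sexes, leaving it out moved the median from -0.83 to -0.66 for mitosis genes and from -0.98 to -0.75 for histone genes. For skeletal muscle genes the median moved from 1.33 to 1.18, and for oxidative phosphorylation from 0.64 to 0.52.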

How the data were processed

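RNA of 36 tibiae was read as strand-specific poly(A) libraries of paired reads, and the 24 libraries of LMNA G/G mice were compared here. Per the methods, the authors aligned reads with STAR to GRCm38 and counted them with QoRTs on GENCODE genes. The values the authors deposited are TPM per gene, whose calculation is not given in the sources used here. The GC content of each gene, a fraction the authors gave in the same table, was used only in an alternative. From the values, a TPM is a whole number of reads over the gene's length minus 218 bp, with 1 constant for each library. Genes of at most 219 bp thus have an effective length of 1 bp and held between 85.3% and 96.6% of the TPM of a library, so they were left out. Reads recovered in this way gave the depth, which was at least 48064068 reads per library, and an alternative with limma-voom.

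Libraries were divided by their median ratio over 23338 genes and multiplied by 1 constant, so that their totals average 1000000. Wild-type libraries were divided by their median ratio to the geometric mean of the 24 libraries over these genes, and multiplied by the same constant. limma 3.58.1 was run in R 4.3.3 on log2(scaled TPM + 0.5), with sex as a covariate and Benjamini-Hochberg adjustment over all genes tested. For low genes this scale gives too small a fold change. A second model added the marrow-cell and muscle contents as covariates and left out the genes of those lists. Another model tested the interaction of treatment and sex. The *Tnfsf11* to *Tnfrsf11b* ratio was compared by permutation. The statistics were tested on simulated data. Alternatives were other pseudocounts, filters, scalings and covariates, array weights, correction for GC content and gene length, the fit on all 36 libraries, each sex alone and each library left out.

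The genes and gene lists were chosen with earlier results of these data known. Largest rises and falls were taken among called genes with a mean of at least 10 scaled TPM in a group and the same direction in both sexes. Direction in a sex was that of the group means without the contents, also for genes ranked within content. Genes were named if they were among the 12 largest rises or falls, or the 10 within content, among the 2 of lowest p or highest mean of a list, or on the study's bone cell panel. The rule gives 235 genes, of which 124 are described with values, chosen with their values known, and 1 gene within content is not reported here. *Gm43119*, *Atrnl1*, *Chd9*, *Wars2*, *Ttc17*, *Mpg*, *Pole3* and *Gm10038* were chosen after their values were seen. The pattern for histone symbols was widened to cover renamed genes. Gene positions come from GENCODE vM21 (GRCm38), and promoter windows are from RefSeq on GRCm38.p6. No 2 libraries held identical values, and p-values measure the spread between mice.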

Additional observations from a re-analysis of the deposited data

Results flagged for a closer look

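Saline-treated females had 1 mouse far from the others in the ratio of *Tnfsf11* to *Tnfrsf11b*. Replicate 5 lay at 0.0851 on the log2 scale with 0.5 added to both levels, while the next female lay at -1.14 and the lowest at -1.75, and the gap was 0.668 of the range, above the limit of 0.625 for 6 samples. Chance gives such a mouse in about 1 in 20 groups of 6 mice. This check was made 12 times, for marrow-cell content, muscle content and the ratio in each treatment and sex, so the same mice entered it repeatedly. Without this mouse the difference between the treatments was -0.63 in place of -0.75.

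The interaction of treatment and sex passed the threshold for 1 gene, *Gm10038*, a pseudogene of 441 bp (chr2:103099155-103099601, plus strand). The log2 fold change of ABE against saline was larger by 1.39 in males than in females (limma, adjusted p = 0.034), at -0.70 in females and 0.69 in males. Its mean levels were 2.81 and 2.65 scaled TPM in ABE-treated and saline-treated mice, and pseudogenes can share reads with their parent genes. This gene was named after its values were seen.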

How the results depend on the processing

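Of the 8953 calls of ABE against saline, other settings gave 5233 (genes with a mean of at least 10 scaled TPM), 5146 (TPM as deposited, 404 higher and 4742 lower), 1206 (females, 385 higher and 821 lower), 3320 (males), 101 (muscle content as a covariate, 67 higher and 34 lower) and 1692 (marrow-cell content as a covariate), and leaving out 1 library 7750 to 10123. Of the 457 calls within content, they gave 281 (no filter), 228 (mean of at least 10), 275 (quantile normalization), 261 (no sex covariate), 1021 (36 libraries in 1 model), 2744 (array weights), 1 (females), 1626 (males) and 172 (4 lists as covariates), and leaving out 1 library 11 to 690. The interaction called 0 genes without a filter, with TPM rescaled to their sum and with limma-voom, 14 with 36 libraries, 2451 with array weights and 0 to 22 without 1 library. The log2 ratio of *Tnfsf11* to *Tnfrsf11b* differed by -0.63 in females alone, which did not pass, and by -0.81 to -0.63 without 1 library.

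Among 124 named genes, those that passed the threshold in either model and turned in direction did so with the contents as covariates, while other settings turned some that passed in neither, such as *Sost* in males alone (0.03). With muscle content as a covariate the log2 fold changes were -0.86 (*Ctxn3*), -0.80 (*Stbd1*), -0.74 (*Plekhb1*), 3.2e-05 (*Ppbp*), 0.0051 (*Pf4*), -0.24 (*Plin4*), 0.0031 (*Cxcl12*), -0.30 (*Cox8b*), -0.11 (*Trim63*) and -0.10 (*Rpl3l*). With both contents they were -0.86 (*Ctxn3*), -0.81 (*Stbd1*), -0.74 (*Plekhb1*), -0.73 (*F830016B08Rik*), -0.64 (*Cacng1*), 0.016 (*Ppbp*), 0.017 (*Pf4*), -0.24 (*Plin4*), 0.0066 (*Cxcl12*), -0.30 (*Cox8b*), -0.11 (*Trim63*) and -0.10 (*Rpl3l*). A turn here is any change of sign, and for *Ppbp*, *Pf4* and *Cxcl12* it left almost no difference. Of the 124, 123 kept direction and side of the threshold with limma-voom, 119 without ABE replicate 1 and 53 in females alone. The cause of these changes was not tested.

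Of 45 gene lists, the median kept its sign in 30 with TPM as deposited, where the median of all genes was -0.27, in 31 with muscle content, in 31 with both contents and in 38 with marrow-cell content as covariates, and in at least 42 under each other setting. No paired analysis was possible because the columns carry mouse numbers and the groups share no replicate numbers in the labels. Every library had at least 48064068 reads on genes.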

Other observations

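Ribosomal protein genes were lower in the editor group by small amounts. Of 82 genes of the cytosolic ribosome, 73 were lower and 1 higher, with a median log2 fold change of -0.27, and within content 4 were lower. In females alone 0 were called, with a median of -0.17, where 6.53% of all genes were called. In males alone 71 were called, with a median of -0.37, where 18% of all genes were called. *Rpl41*, of the large subunit, lay between 367 and 519 scaled TPM (median 483) in ABE-treated and between 510.4 and 748 scaled TPM (median 606) in saline-treated mice, with 9 of 12 ABE-treated mice below all saline-treated mice (log2 fold change -0.40, SE 0.08, adjusted p = 0.0012). *Rpl23* had a log2 fold change of -0.34 (adjusted p = 0.0012, SE 0.06). The one gene that rose was *Rpl3l*, the form of Rpl3 used in muscle (log2 fold change 1.54, SE 0.42, adjusted p = 0.0077). Of 75 histone genes 72 were lower, with a median of -0.98, and within content 5 were lower. Most histone messages end without a poly(A) tail and their copies are near-identical, so the levels of single genes such as *H4c12* (log2 fold change -0.97, SE 0.33, adjusted p = 0.021) are uncertain. *H3f3b*, a histone gene used outside the cell cycle whose message carries a poly(A) tail, lay between 105 and 264 scaled TPM (median 176) in ABE-treated and between 243 and 332 scaled TPM (median 258) in saline-treated mice, with 11 of 12 ABE-treated mice below all saline-treated mice (log2 fold change -0.56, SE 0.11, adjusted p = 0.0015).

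Genes of the circadian clock were higher. Of 16 genes 11 were higher and 0 lower, with a median of 0.32, and 2 passed within content. *Per2*, which feeds back on the clock, lay between 26.4 and 54.9 scaled TPM (median 38.5) in ABE-treated and between 19.2 and 34.3 scaled TPM (median 24.5) in saline-treated mice, with 9 of 12 ABE-treated mice above all saline-treated mice (log2 fold change 0.61, SE 0.10, adjusted p = 0.00067), and it had a log2 fold change of 0.38 (adjusted p = 0.022, SE 0.08) within content. When saline replicate 11 was left out, 8 of all genes tested were called higher within content. *Per3* had a log2 fold change of 0.46 (adjusted p = 0.0015, SE 0.09). *Per1* did not pass (log2 fold change 0.18, SE 0.18, adjusted p = 0.4), and *Dbp*, an output of the clock, rose (log2 fold change 0.68, SE 0.23, adjusted p = 0.02). Of 18 immediate early genes 6 were higher and 5 lower, with *Jun* and *Nr4a1* among the higher ones (log2 fold change 0.87, SE 0.20, adjusted p = 0.0034, and log2 fold change 1.26, SE 0.31, adjusted p = 0.0045). Of 15 genes of the IGF axis 4 were higher and 1 lower, of 19 genes of endoplasmic reticulum stress 5 were higher and 2 lower, of 21 matrix proteases and inhibitors 4 were higher and 4 lower, of 14 glucocorticoid and metallothionein genes 5 were higher and 5 lower, and of 10 MHC class II genes 1 was lower. Their medians lay between -0.20 and 0.22.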
